A study of Vitis vinifera with 2 samples.

Results

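Of 6663 MYB24 binding events called on the primary contigs of the Cabernet Sauvignon genome, 3734 had no event in a second list of the same library that also holds haplotig events, and these 3734 are described here. They are called lost, and the other 2929 are called kept. An event was lost when the second list had no event on the same contig within 100 bp of it, so the word describes a comparison of lists and not of vines or treatments. The lost events made up 56.0% of the primary-only list (95% Wilson interval 54.8 to 57.2%), and they were chosen by the presence and position of events in both lists, so their number and positions are given as a description with no test.

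DNA affinity purification sequencing (DAP-seq) records where a transcription factor made outside the cell binds naked, fragmented genomic DNA. The HALO-tagged grapevine protein VvMYB24 came from rabbit reticulocyte lysate, and the DNA from young leaves of Cabernet Sauvignon clone 08. The control, pIXHALO, is the tag without the factor, on DNA of the same source (CabSauv-B). Each of the 2 groups had 1 library, the deposited event lists are those of VvMYB24, and the control's own events were not analysed here.

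MYB24 belongs to the R2R3-MYB family, whose members bind DNA through paired MYB repeats, and its close relatives in Arabidopsis act in stamen maturation downstream of jasmonate. The series relates grapevine MYB24 to terpene and flavonol metabolism in berries, where terpenes give floral aroma and flavonols absorb ultraviolet light. Grapevine cultivars are kept as clones and are highly heterozygous. An assembly that separates the haplotypes therefore has primary contigs, which carry one version of each locus, and haplotigs, which carry the alternative version of parts of them. A read from a place where both versions are near-identical can be aligned to either of them when both are present. The files pair no event with a gene, and no sequence of this assembly was used here, so events are named by contig and position in version 1.1 of the clone 08 assembly.

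The primary-only list covered 427 primary contigs, and lost events lay on 279 of them. The second list, called the diploid list, had 6102 events, with 4042 on primary contigs and 2060 on 424 haplotigs. All values come from 1 library, without replicates, so no spread between libraries exists for any of them. The intervals given for shares count each event as independent of its neighbours, take in counting error alone, and say nothing of read depth, which is unknown.

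Lost events were found at low and high strength, the signal that the authors deposited for each event, but not at the 2 highest values of the list. Their median strength was 44 (95% binomial interval of the median 43.4 to 45), with quartiles of 36 and 60.0 and values from 23 to 754.6. Kept events had a median of 48.4 (47.7 to 50), quartiles of 34.5 and 81 and values from 23 to 1315. The lower quartiles were thus close to each other, and the upper quartile was lower among lost events. Strength was over 100 at 287 lost events (7.69%), against 12.2% of all primary-only events, and over 300 at 16. Lost events held 49.3% of the summed strength of the list.

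The 20 strongest lost events had strengths from 281 to 754.6 and −log10 q values from 33.2 to 198. A −log10 q of 2, the lowest in the list, stands for a q of 0.01. They were also the only lost events among the 100 strongest of the whole primary-only list, so 20% of those 100 were lost and 80 were kept. For 19 of them the diploid list had no event within 10 kb.

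The strongest lost event, of strength 754.6, was on Primary000106F at 1791106 (bases 1791007 to 1791207). It was number 3 by strength in the whole list. The closest diploid event was 35249 bp off and had 148, and the haplotig numbered after this contig had no event stronger than 143.8. This contig is also where events crowd together: between 1508390 and 1539566 it had 16 kept events in a row.

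On Primary000021F, the event at 1425506 (1425407 to 1425607) reached 551, and the closest diploid event was 171826 bp off. The lost event on Primary000006F at 1638942 (1638843 to 1639043) had a strength of 442, against at most 301 on haplotigs of its number. On Primary000148F at 80550 (80451 to 80651) the strength was 427.3, and the single haplotig event of that number had 22. Each of these 3 values was above that of every haplotig event that carries the number of the contig. The events were picked for high strength, which by itself favours this order.

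Primary000008F had a group of 3 among the 20 strongest, at 4655054, 4663522 and 4900276, with strengths of 339, 398.6 and 412.3. Between them, at 4836629, lay a kept event whose strength was 220.8 without and 126 with haplotigs. The strongest of 32 haplotig events numbered after this contig had 114. Primary000020F also had 3, at 1376979, 3345218 and 3573488, with strengths of 391, 383 and 281.9. On the same contig an event of like strength, 394.0 at 4041384, was kept with a diploid strength of 36.

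On Primary000091F the event at 1461564 had a strength of 366.4 and stood among 12 consecutive lost events between 1411983 and 1585494. Others of that stretch were at 1412121 with 227.3, at 1523372 with 280.9 and at 1523552 with 244.1. On the haplotigs of this number the strongest event had 166.

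A further 7 events of the 20 were on contigs with 3 to 45 haplotig events on their number. Primary000023F at 3869453 had a strength of 376.9, against at most 281 on its haplotigs. Primary000042F at 2309260 had 358, Primary000232F at 89589 had 334 and Primary000055F at 2500436 had 294.5. Primary000065F at 767228 had 281, the lowest of the 20. Primary000013F at 2061966 had a strength of 282 with a −log10 q of 33.2, the lowest of the 20, where the others had at least 59.8. The last of these 7, on Primary000028F at 2574765, lay near a diploid event and is described with the distances.

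Of the 20 strongest lost events, 18 lay on contigs whose number is carried by haplotigs with events, as did 3500 of all 3734 lost events. Every one of these 18 was stronger in the primary-only list than any diploid event on those haplotigs. They were picked for high strength, which by itself favours this order. Among all 276 lost events with a strength over 100 on such contigs the same order held for 208, or 75.4% (69.95 to 80.1%). Over all 3500 lost events on such contigs, weak ones included, it held for 19.5%. The share among kept events was not counted, so this is not shown to be particular to lost events. It also held for some strong kept events. That at 4041384 on Primary000020F had 394, against at most 58 on haplotigs of its number. That at 3582861 on Primary000008F had 760, against at most 114. The median over all haplotig events was 26.8, and no source states that strength has the same scale in both lists.

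The other 2 of the 20 strongest were on contigs without haplotig events, where 234 of all 3734 lost events lay. On Primary000293F the lost event at 376941 (376842 to 377042) reached 411.9, and its neighbour at 376579, also lost, 151.1. Its kept events, at 64930 and 342476, had 38.8 and 39.1, with 38 and 39.1 at the matching diploid events. Primary000183F had a lost event at 96787 (96688 to 96888) with a strength of 323.

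The share lost differed with strength, and it was highest among moderately weak events and not among the weakest. When all primary-only events were ranked by strength and split into 10 groups of nearly equal size, 36.9% (33.4 to 40.7%) were lost in the weakest group, with strengths of 23 to 29.3. The share was 58.1% in the next group, 70.4% (66.8 to 73.8%) at strengths of 34 to 37 and 68.7% at 37 to 41. From there on it was lower in each stronger group, down to 33.7% (30.2 to 37.4%) at strengths of 110.8 and above. Over the 83 events with a strength over 300, 19.3% (12.2 to 29.0%) were lost.

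The course of the share with strength differed in size between contigs whose number is carried by haplotigs with events and the others. On contigs with haplotig events the share lost was 45.5% (40.5 to 50.6%) in the weakest group, 74.0% and 74.1% in groups 3 and 4, and 35% (31.3 to 38.8%) in the strongest. On contigs without them it lay between 17.0% and 32.9% in all 10 groups, and the interval of every group overlapped those of the others. In the strongest group it was 17.0% (8.89 to 30.1%), and there the contig classes lay closest to each other.

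**Figure D1:**
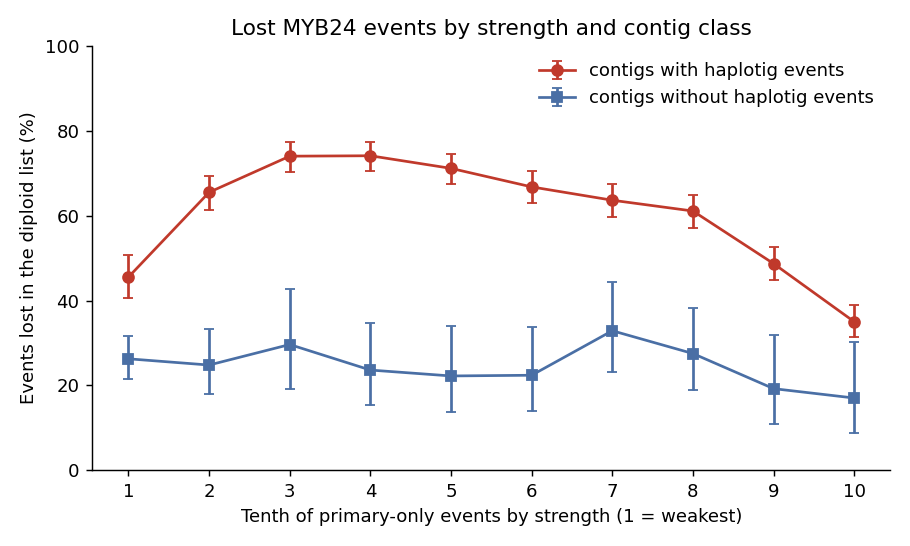
Share of primary-only events lost in the diploid list (y axis, percent) for 10 groups of nearly equal size by strength (x axis, 1 the weakest), on contigs with (red circles) and without (blue squares) haplotig events; bars are 95% Wilson intervals. The red points reach 74.1% in group 4 and 35% in group 10, while the blue points lie between 17.0% and 32.9%.

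Lost events also had a lower deposited significance than kept events of the same strength group. Over all strengths the median −log10 q was 3.96 for lost events (3.85 to 4.08) and 6.46 for kept events (6.20 to 6.68). Within each of the 10 strength groups the lost median was the lower of both. At strengths of 34 to 37 it was 2.7 for lost and 3.7 for kept events, at 46 to 51.9 it was 4.52 and 6.3, and in the strongest group, which spans 110.8 to 1315, it was 29.2 and 33.8. On contigs without haplotig events the order was the other way in that strongest group, with 33.0 for 8 lost and 29.6 for the kept events.

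A −log10 q of at least 5 was reached by 1406 lost events, or 37.7% (36.1 to 39.2%), against 48.1% of the whole list. Counted the other way, 73.2% (71.0 to 75.4%) of the 1580 primary-only events with a −log10 q under 3 were lost, 43.9% of those reaching 5 and 35.7% (33.3 to 38.1%) of those reaching 10. No source used here states how the q was computed, and the part of the control library in these values was not tested.

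**Figure D2:**
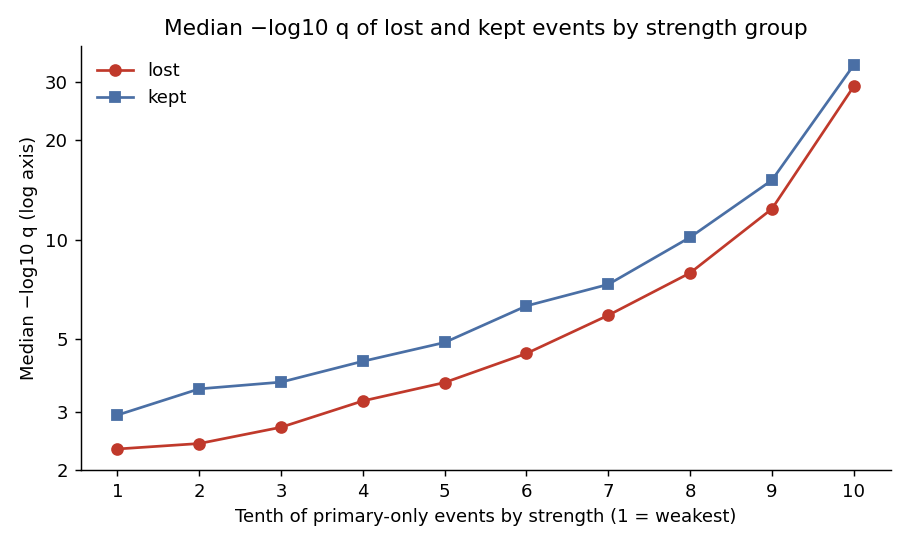
Median −log10 q of lost (red circles) and kept (blue squares) primary-only events (y axis, log scale) in 10 groups by strength (x axis, 1 the weakest). The red line lies below the blue one in all 10 groups, at 2.7 against 3.7 in group 3 and 29.2 against 33.8 in group 10.

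Lost events were more frequent on primary contigs whose number is carried by haplotigs with events. On the 168 contigs of this kind, 3500 of 5737 events were lost, or 61.0% (59.7 to 62.3%). On the other 259 contigs, 234 of 926 were lost, or 25.3% (22.6 to 28.2%). A haplotig without events does not show in the lists, so the second class can hold contigs that have haplotigs. Haplotig events come from the same diploid list that defines loss, and these shares are a description.

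Shares differed less between numbers of haplotig events than between none and any. With a single haplotig event on the number, 47.6% (39.6 to 55.7%) of 145 events were lost, and with 2 to 4 it was 56.1% (51.8 to 60.4%). The share was 60.4% with 5 to 9, 58.6% with 10 to 19, 63.5% with 20 to 49 and 66.6% (62.95 to 70.1%) with 50 or more. Over the 139 contigs with haplotig events and at least 10 primary-only events, the share lost and the number of haplotig events per primary-only event had a Spearman rho of 0.18 across contigs, which share 1 library and the same primary-only counts.

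Events lost on the primary contigs outnumbered the events found on their haplotigs. The 168 contigs had 3500 lost events, and the haplotigs of their numbers had 2051 events. On 131 of these contigs there were fewer haplotig events than lost events, on 21 there were more and on 16 the numbers were equal. Over the 167 with lost events, the median was 0.52 haplotig events per lost event.

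The 7 contigs with most lost events were also the 7 with most events. Primary000000F had 166 lost of 257 (64.6%, 58.6 to 70.2%), with 59 haplotig events on its number. Primary000002F had 157 of 232 (67.7%) with 77, and Primary000003F 116 of 165 (70.3%, 62.9 to 76.7%) with only 26. Primary000001F had 104 of 155 (67.1%) with 82 haplotig events.

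The other 6 of the 10 leading contigs were Primary000005F, Primary000007F, Primary000008F, Primary000011F, Primary000020F and Primary000029F. Their shares lost ran from 61.7% on Primary000007F to 74.7% on Primary000029F, and the median strength of their lost events from 45.5 to 53. All 10 contigs held 25.4% of the lost events and 21.2% of all primary-only events.

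**Figure D3:**
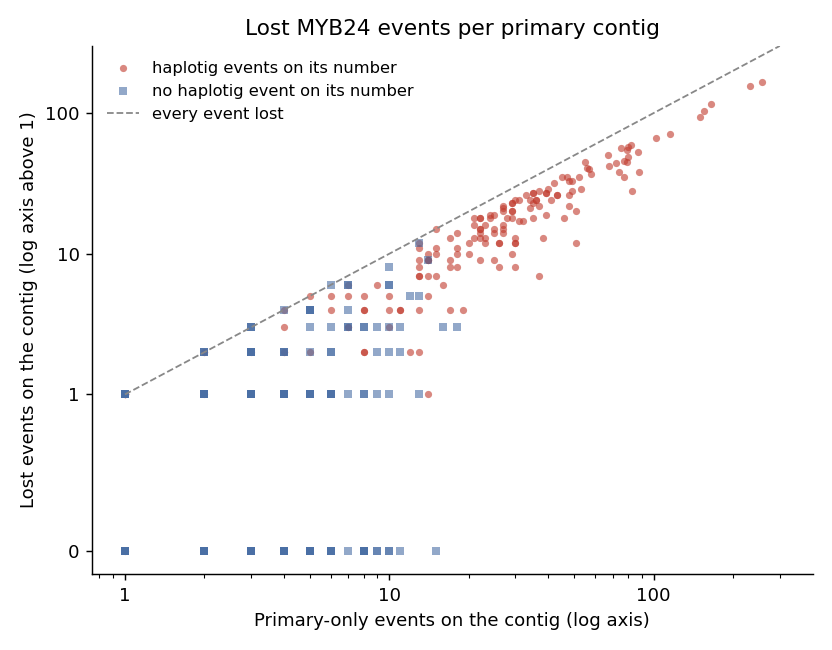
Lost events (y axis, log scale above 1) against all primary-only events (x axis, log scale) on each of 427 primary contigs, with (red circles) or without (blue squares) haplotig events on the number of the contig; on the dashed line every event is lost. The 4 contigs with most lost events, 104 to 166 each, are red and lie below the line, and 147 blue contigs lie at 0.

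Among contigs with at least 10 events, the share lost went from 0 to all. Over the 139 with haplotig events its median was 61.7% (quartiles 49.4 and 70.9%), and on 101 of them more than 50% of events were lost. Over the 19 without haplotig events the median was 20% (quartiles 8.85 and 50.8%), with more than 50% lost on 5.

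Primary000088F lost all of its 15 events (79.6 to 100%). They lay from 302231 to 1977208, with strengths of 30.3 to 129, the strongest at 772785 and the next, 120.9, at 1012767. The diploid list had 5 events on this contig, with strengths of 15.4 to 23 the closest of them 7132 bp from a lost event. Haplotig000088F_005 had 10 events with strengths of 13 to 109.

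Primary000188F lost 12 of 13 events (66.7 to 98.6%), with 5 haplotig events on its number. Primary000123F lost 18 of 21 and Primary000197F 11 of 13. These contigs, like Primary000088F, have haplotigs with events. Primary000243F does not, and it also lost 12 of 13: the kept event at 272585 had a strength of 36 in both lists, while lost events had up to 83, at 637412.

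At the other end, Primary000281F kept all of its 15 events, between 69053 and 469244, with strengths of 23 to 106.2. Primary000115F kept all 11, Primary000172F all 10 and Primary000502F all 10. None of these 4 has haplotig events on its number. Primary000057F, with 1 haplotig event, lost 1 of 14, with a strength of 23, the lowest in the list. With 10 to 15 events a contig, these shares have wide intervals: keeping all 15 allows a share lost of up to 20.4%.

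In all, 43 contigs lost every event and 148 lost none. Of the 43, 30 had a single event and 11 had haplotig events on their number, while 147 of the 148 had none on theirs. Among all 427 contigs, 259 had no haplotig events. The 148 were mostly small, as 67 had a single event and all together held 401 events. The 234 lost events on contigs without haplotig events were spread over 112 contigs. After Primary000243F, the largest numbers on 1 contig were 9 of 14 on Primary000180F and 8 of 10 on Primary000183F. Primary000333F had 6 of 6. Their median strength was 35 and their median −log10 q 3.33, against 44.8 and 4.02 for lost events on contigs with haplotig events.

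Lost events followed each other along the contigs. After a lost event, the next primary-only event on the contig was lost in 70.3% of cases (68.8 to 71.8%), and after a kept event in 40.4% (38.5 to 42.3%). On contigs with haplotig events the shares were 71.1% after lost and 46.3% after kept events. On contigs without them they were 54.9% (47.5 to 62.1%) and 14.8% (11.9 to 18.2%). Contigs differ in their share lost, which by itself makes neighbours alike, and the part of this in the values was not tested.

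Long stretches of a contig had lost events only. There were 1211 runs of consecutive lost events, 460 of which were a single event, and 50.3% of lost events stood in runs of at least 5. The share of kept events in such runs was not counted. Lost events are 56.0% of the list, which by itself lengthens their runs, and the part of this was not tested. Runs of at least 10 numbered 50, on 39 contigs, and held 624 lost events, or 16.7%. Runs of at least 10 kept events held 12.4% of kept events. The 50 runs of lost events spanned 194 to 1675 kb, with a median of 587 kb. All 50 were on contigs with haplotig events, which held 3500 of the 3734 lost events. A run of this length needs at least 10 lost events on 1 contig. Among contigs without haplotig events only Primary000243F, with 12 lost of 13, had that many, so the other class had little room for such runs.

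By number of events the longest runs were on Primary000003F. One had 22 events from 294779 to 1317203, over 1022 kb, with strengths of 32 to 255 and a median of 54. Another had 20 events from 5741432 to 6714421, over 973 kb, with strengths of 31.6 to 97. The diploid list had no event on this contig inside either stretch. The 9 haplotigs of this number with events had 26 in all, and 13 of them were on Haplotig000003F_013, with strengths of 14 to 52.

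On Primary000098F, 18 consecutive events from 474999 to 1035082 were lost, the strongest with 155.5, and the diploid list had 2 events inside with at most 21.1. The 3 events before this run were kept, with strengths of 35.8 at 4397, 76 at 26915 and 55.4 at 208770 facing 39, 72 and 49.9 with haplotigs. Primary000007F had a run of 16 from 1351121 to 1910687, with no diploid event inside. Runs of 15 were on Primary000000F, Primary000003F, Primary000009F and Primary000088F.

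Inside the 50 runs the diploid list had 32 events in all, and 31 runs had none. These 32 events had a median strength of 18.6, against 29 for all diploid events on primary contigs, and 24 of them were under 23, the smallest strength of the primary-only list. By the matching rule none of the 32 was within 100 bp of a primary-only event of its run. The diploid events on primary contigs include the matches of kept events, so these medians describe sets that the rule itself made unlike. Kept events also stood in runs. Of the runs of at least 10 kept events there were 29, with 12.4% of kept events, and the longest had 27, on Primary000033F from 671350 to 1837546.

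**Figure D4:**
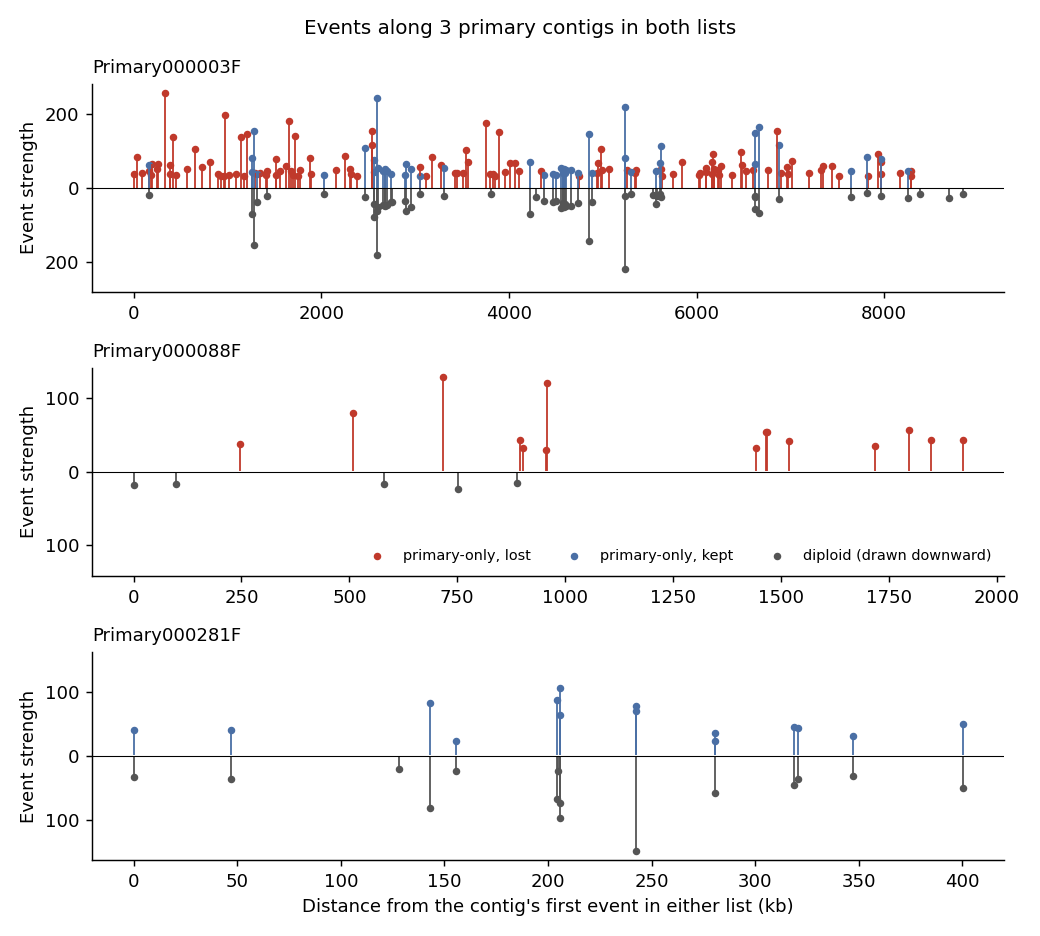
Event strength (y axis) against distance in kb from the contig's first event in either list (x axis) on Primary000003F, Primary000088F and Primary000281F: lost (red) and kept (blue) primary-only events are drawn upward and diploid events (grey) downward. Primary000088F has 15 red events facing 5 weak grey ones, and Primary000281F has 15 blue events and no red one.

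Most lost events were far from any diploid event of their contig. For 3196 of them, or 85.6% (84.4 to 86.7%), none lay within 10 kb. Where the contig had one at all, the median distance was 61869 bp, with quartiles of 22432 and 132877 bp. Among the 3196 were 39 lost events on 29 contigs without any diploid event. Kept events have a diploid event within 100 bp and lost events have none by definition, so the order of their distances is fixed by the rule. Within that limit, 80.5% of kept events had their diploid event within 1 bp.

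Few lost events were near the matching limit: 24 were at 101 to 110 bp and 123 (3.29%) within 500 bp. Just outside the limit, at 101 bp, were events on Primary000026F at 3321267, Primary000468F at 37960 and Primary000150F at 813831. Their strengths of 51.8, 35.6 and 25.9 faced diploid strengths of 51.5, 18 and 16.6. Just inside, at 100 bp, were kept events on Primary000026F at 789870, Primary000105F at 966685 and Primary000144F at 1228534, with strengths of 69, 54 and 33.9 against 70.3, 37 and 19.7.

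Of the 123 within 500 bp, 67 had as nearest diploid event one that was already the match of a kept event. An example is Primary000028F, which had the only one of the 20 strongest lost events with a diploid event within 10 kb. The primary-only list had events at 2574765, 2574933 and 2575289, with strengths of 358.9, 543.3 and 303.8. The diploid list had 596.5 at 2574882, which is 117 bp from the first and 51 bp from the second, and 307.5 at 2575279. The first was counted as lost and the others as kept.

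**Figure D5:**
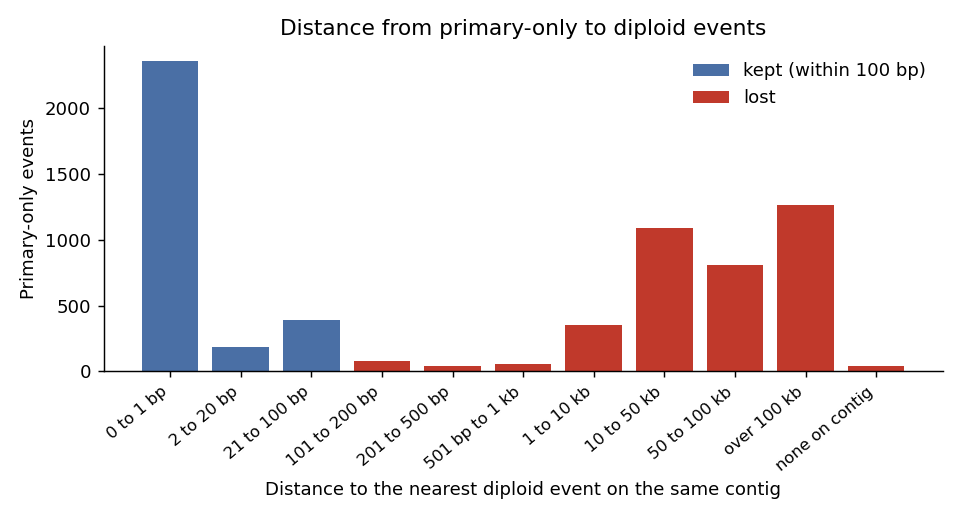
Number of primary-only events (y axis) by distance to the nearest diploid event on the same contig (x axis, classes of unequal width), with kept events in blue and lost events in red. The bar at 0 to 1 bp holds 2357 events, the 3 classes between 101 bp and 1 kb hold 79, 44 and 59, and those over 10 kb most lost events.

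Lost events were less frequent among crowded and among isolated events than between these extremes. Where the nearest other primary-only event was within 200 bp, 47.2% (42.8 to 51.7%) were lost, and at over 5 to 20 kb 62.5% (60.1 to 64.8%). At over 100 kb the share was 35.4% (31.7 to 39.4%). On contigs with haplotig events the same classes had 51.5%, 65.2% and 43.6%, and on contigs without them 18.8%, 30.8% and 18.8%. In clusters, taken as 5 or more events each up to 5 kb from the next, 42 of 140 events were lost, or 30% (23.0 to 38.0%).

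Spacings between lost events were seldom found again on haplotigs of the same number. Of 591 neighbouring pairs of lost events up to 10 kb apart, on contigs with haplotig events, 14 (2.37%, 1.42 to 3.94%) had a spacing within 5 bp of that of a neighbouring haplotig pair. For pairs of kept events it was 29 of 340, or 8.53% (6.0 to 12.0%). With events matched within 20 bp, the shares were 2.82% (1.81 to 4.36%) of lost and 4.50% (2.46 to 8.09%) of kept pairs, and these intervals overlap. Of the 14, 12 were spaced up to 1 kb, where 6.38% of lost and 13.7% of kept pairs had an equal spacing. The lost pairs that start at 646518 and at 647188 on Primary000159F were matched to the same haplotig pair. Lost and kept pairs whose number had no neighbouring haplotig pair stayed in the totals as not equally spaced. How often unrelated pairs have an equal spacing was not measured.

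Some of these pairs had like strengths on both sequences. On Primary000000F, the lost events at 7340098 and 7340165, 67 bp apart, had strengths of 109.6 and 39.4, and Haplotig000000F_029 had 113.9 and 44.1 at 370498 and 370560. On Primary000011F, strengths of 57.1 and 52.9 at 3836333 and 3836540 faced 64.2 and 54.6 on Haplotig000011F_016. On Primary000005F, 64.7 and 56.3 at 171004 and 171152, 148 bp apart, faced 88.4 and 63.6 at the same spacing on Haplotig000005F_021. Others differed widely: Primary000001F had 160.6 and 63.4 at 1672285 and 1672365, and Haplotig000001F_084 had 22 and 30 at an equal spacing of 80 bp.

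Longer series of events equally spaced, within 100 bp, on a primary contig and a haplotig of its number were rare. The haplotig was read in the same and in the opposite direction, and among 417 pairs of sequences, 3 had a series of at least 4 events. Primary000106F and Haplotig000106F_001 had 9 in the same direction, of which 3 were lost, between 1497536 and 1551460. In the opposite direction the same sequences had 7, of which 2 were lost, between 1497977 and 1540470, and both directions cannot hold for 1 alignment of this crowded stretch. Primary000002F with Haplotig000002F_098 (opposite direction) and Primary000025F with Haplotig000025F_002 (same direction) had 4 each, of which 3 and 1 were lost, and the remaining pairs had at most 3.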

How the data were processed

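Per the submitters' processing notes, the authors used Trim Galore 0.6.6 and cutadapt 3.1 for trimming and Bowtie2 2.3.2 for alignment. GEM made the event calls, per the deposited lists' names. No source used here gives the GEM version, its settings or how reads with several equal positions were treated. The sequence names of the primary-only list are the basis for taking it as made without haplotigs. The lists have no header and were read in narrowPeak order. Strength here is the signal that the authors deposited for each event. What it counts is not stated, so depth is unknown. The deposited −log10 p and −log10 q are the authors' own, and the deposited score was not used. Positions are those in the event names, and the intervals of 201 bp are 1-based.

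Primary-only events were matched to diploid events on the same contig within 100 bp. With 1 library per group and members chosen by the readout, no test was run, and shares have 95% Wilson intervals. The members and lists were chosen with earlier results of these data known. The rule for named items took the 20 strongest lost events, 3 events on each side of the matching limit, the 10 contigs with most lost events, 5 contigs of at least 10 events at each end of the share lost, and the 5 longest runs and series, ties included. Contigs without haplotig events and examples of spacing were added after their values were seen. Alternatives were the matching distance, overlap of intervals, limits on −log10 q, a common minimum strength, leaving out clusters, the number of strength groups and the spacing limits. The work was done in Python 3.11.15 (pandas 2.3.3, numpy 2.4.6, scipy 1.17.1; figures with matplotlib 3.10.9). The matching of events and the search for equally spaced pairs were tested on lists simulated from the primary-only list. In those lists loss was random, and every lost event was placed on a haplotig with its spacing kept. Spacings that differ between haplotypes were not simulated.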

Additional observations from a re-analysis of the deposited data

How the results depend on the processing

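Shares lost on contigs with haplotig events stayed above those on contigs without them in each setting. Shares after lost events likewise stayed above those after kept events, and lost pairs below kept pairs in equal spacing. For equal spacing, the intervals of lost and kept pairs overlapped with matching within 20 bp and with either limit on −log10 q. At a −log10 q of at least 10, 41 lost and 96 kept pairs entered. Split into 5 strength groups, 47.5% of the weakest, 69.5% of the second and 40.1% of the strongest were lost. With matching within 20 bp, 53.6% of the weakest and 51.7% of the strongest group were lost, 66.4% on contigs with and 33.9% on contigs without haplotig events, and 73.0% after lost and 46.8% after kept events; 77.6% of lost events had no diploid event within 10 kb, and 2.82% of lost and 4.50% of kept pairs had an equally spaced haplotig pair. Within 500 bp, 59.0% were lost on contigs with haplotig events and 37.5% after kept events, and 88.5% had no diploid event within 10 kb; for intervals sharing at least 1 bp this was 87.4%. When both lists were limited to a −log10 q of 5 or more, lost events numbered 1913 with a median strength of 67, and the shares in the same order were 52.3%, 44.9%, 65.5%, 37.0%, 74.0% and 42.7%, with 93.5% beyond 10 kb. With −log10 q of at least 10 in the primary-only list, where fewer events enter, they numbered 550 with a median strength of 101; the weakest, second and strongest groups had 30.2%, 39.9% and 29.4%, the contig classes 38.6% and 12.7%, the shares after lost and kept events were 50.9% and 29.5%, and lost and kept pairs had an equal spacing in 4.88% and 13.5%. When diploid events weaker than every primary-only event were set aside, the weakest, second and strongest groups had 52.5%, 73.9% and 45.5%, the contig classes 66.9% and 32.1%, events after a lost event 76.5%, events beyond 10 kb 90.3% and lost pairs 1.00%. With 10 strength groups the weakest, second and strongest had 36.9%, 58.1% and 33.7%. Contigs with under 5 haplotig events lost 37.3%. Beyond 50 kb of any diploid event were 56.5% of lost events. A spacing within 2 bp was found for 1.18% of lost and 5.59% of kept pairs, and among pairs over 200 bp apart for 1.41% of lost pairs. The other 46 of 94 values stayed within the intervals of the report, or within 1.5 times the count. The cause of each shift was not tested. No paired analysis was possible because VvMYB24 and the control have 1 library each, which also leaves none to omit. With depth unknown, the error of single strengths is unknown too.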

Other observations

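Most strengths of lost events, 72.2%, were whole numbers, as were 69.0% of those of all primary-only events. A fractional strength was more frequent among events with a close neighbour. Among lost events with another primary-only event within 500 bp, 12.3% of 359 had a strength without a decimal, against 10.5% of 400 kept events (intervals 9.26 to 16.1% and 7.86 to 13.9%). Without such a neighbour it was 78.5% of 3375 lost events (77.1 to 79.9%) and 73.7% of 2529 kept events (71.9 to 75.3%).

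Of the 3734 lost events, 3633 (97.3%) had a strength of at least 26, which is 2 times the smallest strength of the diploid list, 13. This limit lies near the floor of the primary-only list, as both lost and kept events start at 23. The lower quartiles of lost and kept events, 36 and 34.5, were both above it. The share of kept events reaching 26 was not counted, so the value does not set lost events apart.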
